A study of Mus musculus with 3 samples.

Results

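Retinoic acid genes were examined as a group of 9 among the 32285 genes of the matrices: the retinaldehyde dehydrogenases Aldh1a1, Aldh1a2 and Aldh1a3, the cellular retinoic acid binding proteins Crabp1 and Crabp2, the retinoic acid receptors Rara, Rarb and Rarg, and the degrading enzyme Cyp26b1. They were chosen by symbol for their roles in the pathway. All 9 were detected in every library. Single-cell RNA sequencing was performed by the study on whole mouse kidneys at E15.5 (embryonic day), with 1 library from embryos with normal Enl (Enl-WT), 1 from embryos heterozygous for a conditional T1 mutation of Enl (Enl-T1), and 1 from Enl-T1 embryos whose mothers had been given TDI-11055 by mouth at 100 mg/kg each day from E10.5 to E14.5. The last is called the TDI-11055 library here, the ratio of Enl-T1 over Enl-WT the mutant ratio, and the ratio of the TDI-11055 library over Enl-T1 the inhibitor ratio. ENL, encoded by Mllt1, is a reader of acylated histones, and TDI-11055 is an inhibitor of that reading domain. Embryos of all 3 groups carried the Wt1 GFPCre allele, which places Cre under Wt1 control in nephron and stromal cells and disrupts 1 copy of Wt1. The paper describes Cre and the mutant transcript as confined to the nephron and stroma, so ureteric and endothelial cells lie outside that range. The Enl-WT and Enl-T1 libraries are labelled as untreated. Kidneys of more than 1 embryo were pooled in the Enl-WT and Enl-T1 libraries, the number behind the TDI-11055 library is not given in the sources used here, and no cell can be traced to an embryo. Each group therefore had 1 sample, no test between groups was possible, and every interval given here is a 95% interval of counting error alone.

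Retinoic acid is made from vitamin A. Retinol is taken up by cells, oxidised reversibly to retinaldehyde by enzymes such as RDH10, and then oxidised irreversibly to retinoic acid by an ALDH1A enzyme. CRABP proteins hold retinoic acid in the cytoplasm, RAR proteins bind it in the nucleus as partners of RXR proteins, and CYP26 enzymes break it down. In the developing kidney, stromal cells that make retinoic acid are known to signal to the neighbouring ureteric bud, where receptor activity sustains Ret, the receptor that drives branching.

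Receptor complexes bind DNA at paired half-sites of 6 bases. The form named DR5, a direct repeat with a spacer of 5 bases, was searched on both strands of the RefSeq promoters (GRCm38.p6, from 250 bases before to 50 bases after each start). It was found in 32 of 32851 promoters of that length (0.0974%). Among 12 promoters that matched 7 of the 9 genes, 1 held it, that of Rarb, and among 48 promoters of the wider pathway list described later, 1 held it, that of Cyp26a1. No promoter was listed for Aldh1a3 or Crabp2. The 250 bases before the start of both genes are printed because they show the sequence through which receptors are known to act on their own pathway, with the DR5 match in capitals. In Rarb the match runs from 53 to 37 bases before the start (chr14:16575513-16575529), and in Cyp26a1, where it is read from the opposite strand, from 32 to 16 bases before the start (chr19:37697776-37697792).
Rarb promoter, chr14:16575477-16575726, minus strand: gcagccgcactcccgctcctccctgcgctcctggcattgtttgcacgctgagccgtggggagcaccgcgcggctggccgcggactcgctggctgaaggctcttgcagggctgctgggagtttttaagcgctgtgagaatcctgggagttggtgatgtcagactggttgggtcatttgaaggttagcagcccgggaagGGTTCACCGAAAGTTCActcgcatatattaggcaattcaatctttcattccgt
Cyp26a1 promoter, chr19:37697558-37697807, plus strand: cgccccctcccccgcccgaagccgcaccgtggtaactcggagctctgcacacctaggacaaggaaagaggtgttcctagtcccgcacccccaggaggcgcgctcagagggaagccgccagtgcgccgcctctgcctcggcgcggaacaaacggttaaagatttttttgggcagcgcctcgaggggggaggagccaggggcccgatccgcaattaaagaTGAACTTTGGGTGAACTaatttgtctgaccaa
These are reference sequences, and the libraries hold no measurement of binding at them.

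Levels are given in CPM, the UMIs (unique molecular identifiers, each counting 1 captured transcript) of a gene in a cell class of a library, divided by all UMIs of that class and scaled to a fixed total. The libraries kept 5233, 4144 and 2754 cells (Enl-WT first, the TDI-11055 library last, the order used wherever 3 values follow each other), with medians of 5090, 9391 and 16932 UMIs per cell, and any pair of them shared 10 to 14 barcodes. Ribosomal protein genes took a median of 16.5% to 27.8% of a cell's UMIs, and 26.5%, 73.3% and 35.1% of the cells were female by Xist and Y-linked genes, so the libraries differed in more than genotype. Cell classes were rebuilt by clustering and carry the suffix "-like". The podocyte-like cells of Enl-T1 had little of the 8 podocyte markers, whose summed level was 10785, 208 and 3351 CPM. A gene was called when 2 libraries differed at least 2-fold, with a mean of at least 5 CPM and an interval of the ratio that left out 1. Such a call compares 2 libraries and not the conditions. The median gene itself had a log2 ratio of -0.41 in nephron, -0.31 in stroma, -0.30 in the ureteric lineage and -0.31 in endothelial cells for the mutant ratio, and between -0.06 and 0.03 for the inhibitor ratio. Longer genes had lower ratios, with Spearman correlations across genes of -0.51 to -0.34 between exonic length and the log2 mutant ratio in the 4 lineages and of -0.45 to -0.23 for the inhibitor ratio, so the median of genes of like length stands beside the main results.

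In the Enl-WT kidney the 3 synthesising enzymes occupied different cells. Aldh1a2 was highest in Foxd1 cortical stroma-like cells, Aldh1a3 in the ureteric epithelium, and Aldh1a1 in podocyte-like and ureteric tip-like cells. The binding protein Crabp1 was highest in the same cortical stroma as Aldh1a2, with ureteric stroma-like cells at a like level, while Crabp2 was spread over cortical stroma, ureteric trunk, urothelium and nephron progenitors. Among the receptors Rara was detected in every named class, between 17.1 and 44.5 CPM, Rarb was highest in medullary stroma, and Rarg was low in every nephron class. Cyp26b1 was highest in endothelial cells.

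**Figure D1:**
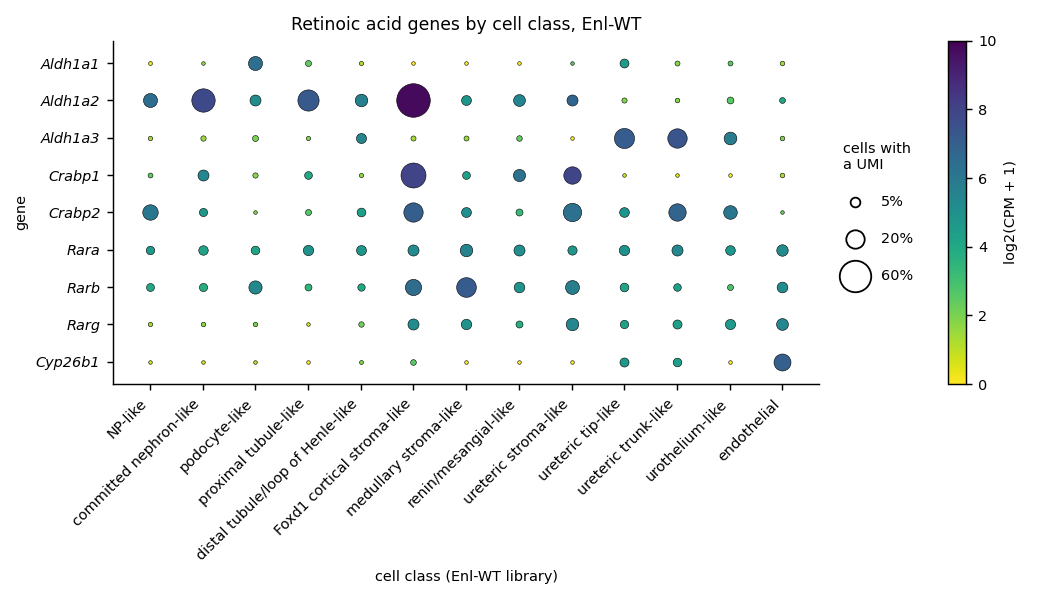
Each point is a gene (rows) in a cell class (columns) of the Enl-WT library. The colour gives log2(CPM + 1), the area the percent of cells with a UMI after each cell was thinned to 2000 UMIs, and colours are to be read along a row; Aldh1a2 in Foxd1 cortical stroma-like cells, Aldh1a3 in ureteric tip- and trunk-like cells and Cyp26b1 in endothelial cells stand out from the rest of their rows.

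Aldh1a2 (ENSMUSG00000013584, chr9:71215789-71296243, plus strand), the main retinaldehyde dehydrogenase of the embryo, had 3188, 2766 and 3228 UMIs in the kept cells. In Enl-WT its level was 866 (815 to 919.8) CPM in Foxd1 cortical stroma-like cells, followed by 221 (198 to 245) in committed nephron-like, 153 (135 to 172) in proximal tubule-like, 110.2 (68.2 to 168) in ureteric stroma-like and 88.4 (79.7 to 97.7) in nephron progenitor-like (NP-like) cells. The ureteric stroma interval overlaps those of its neighbours in that order. Distal tubule/loop of Henle-like, renin/mesangial-like, podocyte-like and medullary stroma-like cells followed at 50.4, 42.6, 34.8 and 26.3 CPM, with overlapping intervals between neighbours, and ureteric tip-like and trunk-like cells had 2.76 and 2.56. Cortical stroma and early nephron thus held most of the transcript, and the ureteric epithelium little.

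Between the libraries, Aldh1a2 in Foxd1 cortical stroma-like cells stood at 866 (815 to 919.8) in Enl-WT, 335 (313 to 357) in Enl-T1 and 737 (691 to 786) with TDI-11055. It was highest in Enl-WT, lowest in Enl-T1 and in between with TDI-11055, and no intervals overlapped. The mutant ratio was 0.386 (0.353 to 0.423), a log2 ratio of -1.37 against 0.06 for the median gene of like length, and the inhibitor ratio was 2.203 (2.01 to 2.42), a log2 ratio of 1.14 against 0.21. The latter fell under 2-fold, ending its call, with cells thinned to 2000 UMIs (0.92) and with cells filtered more strictly (0.98). Both comparisons use the Enl-T1 library, so a low value there moves them in opposite directions. The 3 clusters of this class were each lowest in Enl-T1, with 1216, 538 and 878 CPM in the first, 612, 272 and 649 in the second and 268, 159 and 418 in the third. The share of these cells with an Aldh1a2 UMI, each cell thinned to 2000 UMIs, was 68.4%, 37.7% and 59.3%, and without thinning 77.8%, 65.9% and 85.6%. In endothelial cells, taken here as the class that should lack the gene, thinned shares were 1.299%, 1.17% and 0% (0 of 115 cells, which allows up to 2.61%).

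The 7 markers used for this class were, by their sum, also lowest in Enl-T1. Their summed level in Foxd1 cortical stroma-like cells was 1541, 676 and 819 CPM, none of the 7 was higher in Enl-T1 than in wild type, and none was at 0 in any library. Their part in the Aldh1a2 result was not tested. Over the whole stroma Aldh1a2 had 409 (390 to 429), 152 (145 to 160) and 475 (452 to 498) CPM, so TDI-11055 lay above Enl-WT there. An unnamed stromal cluster that held 147, 195 and 67 cells had 591, 233 and 644. Medullary stroma-like cells had 26.3, 3.44 and 5.96 CPM, the last from 28 cells. Not every stromal class was lowest in Enl-T1. Renin/mesangial-like cells had 42.6, 56.8 and 30.7 CPM, with Enl-T1 above Enl-WT in both of their clusters but within overlapping intervals, and ureteric stroma-like cells had 110.2, 84.2 and 29.97.

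In the nephron lineage, committed nephron-like cells had the order of the Foxd1 cortical stroma-like class as a whole. Aldh1a2 there stood at 221 (198 to 245) in Enl-WT, 68.3 (50.8 to 89.7) in Enl-T1 and 152 (134 to 171) with TDI-11055, the Enl-T1 value coming from 55 cells. The mutant ratio was 0.309 (0.226 to 0.415) and the inhibitor ratio 2.23 (1.65 to 3.07). NP-like cells kept closer values, 88.4, 76.7 and 67.1 CPM, with ratios of 0.867 (0.762 to 0.988) and 0.875 (0.785 to 0.975). Across the nephron the gene had 101, 70.8 and 80.5 CPM, and neither comparison was called. Endothelial cells had 15.9, 2.83 and 0.568 CPM. The mutant ratio there, 0.178 (0.0766 to 0.368), rests on 46 and 9 UMIs, and its log2 value of -2.49 was -0.15 in thinned cells. The class was taken beforehand to lack the gene, and whether these UMIs are background was not tested. The 10 stromal markers in the endothelial cells summed to 74.98, 136 and 5.68 CPM, with 6 of them higher in Enl-T1 than in wild type and 6 at 0 with TDI-11055. Their part in the endothelial Aldh1a2 values was not tested.

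Aldh1a3 (ENSMUSG00000015134, chr7:66390890-66427517, minus strand) is the enzyme of epithelia, and had 1755, 3102 and 3277 UMIs. Ureteric epithelium held 87.4%, 94.2% and 91.9% of them in the 3 libraries. Within it the Enl-WT levels were 169 (154 to 185) CPM in trunk-like, 135 (125 to 146) in tip-like and 57.2 (41.9 to 76.3) in urothelium-like cells, intervals that do not overlap. Distal tubule/loop of Henle-like cells had 44.5 (38.00 to 51.8) CPM, overlapping urothelium, and every other class was under 5 CPM.

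Aldh1a3 differed between the libraries in the opposite sense to Aldh1a2 and by less. Over the ureteric epithelium it had 137 (131 to 144) in Enl-WT, 189 (182 to 196) in Enl-T1 and 158 (153 to 164) with TDI-11055. The Enl-T1 level exceeded both others, with a mutant ratio of 1.38 (1.29 to 1.47) and an inhibitor ratio of 0.838 (0.796 to 0.882), and neither reached 2-fold. Trunk-like cells showed the wider gap, 169, 292 and 192 CPM, and a log2 ratio of 0.79 that became 1.08, past the 2-fold line, once taken relative to the median gene. Tip-like cells had 135, 208 and 150.0 CPM. Urothelium-like cells had 57.2, 43.6 and 80.5 CPM, with overlapping intervals of Enl-WT and Enl-T1 and an inhibitor ratio of 1.85 (1.38 to 2.46). Their larger cluster had 84.1, 65.3 and 106 CPM and the smaller 10.3, 15.6 and 24.9, so only the inhibitor ratio had 1 direction in both. Urothelium-like cells made up 8.16%, 21.8% and 4.89% of the ureteric epithelium, and the lineage level includes this difference in make-up. Thinned shares of ureteric epithelial cells with a UMI were 22.4%, 27.6% and 27.5%, against 0.519%, 0.391% and 1.74% of endothelial cells. In the distal tubule/loop of Henle-like class the levels, 44.5, 39.2 and 54.3 CPM, had ratios of 0.8801 (0.635 to 1.203) and 1.39 (1.02 to 1.92).

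Aldh1a1 (ENSMUSG00000053279, chr19:20492715-20643465, plus strand) had fewer UMIs, 302, 111 and 288. Nephron cells gave 52.6%, 3.604% and 3.47% of them and ureteric epithelium 45.03%, 92.8% and 95.8%. Podocyte-like cells were its highest class in Enl-WT, at 84.9 (71.4 to 100.2) CPM from 139 UMIs in 219 cells, and ureteric tip-like cells followed at 21.7 (17.8 to 26.1). The 37 podocyte-like cells of Enl-T1 had 0 UMIs, which is 7.63-fold lower when the 0 is set to 3 counts. The exact interval of the mutant ratio reached up to 0.163. The 28 cells of the TDI-11055 library had 6 UMIs (14.1 (5.19 to 30.8) CPM). The podocyte markers of those cells were also far lower, as given above, and their part in the Aldh1a1 result was not tested. Tip-like cells had 21.7, 17.9 and 22.7 CPM, with ratios of 0.826 (0.616 to 1.104) and 1.27 (0.988 to 1.64) that both include 1. Over the ureteric epithelium the values were 12.2, 6.67 and 14.53 CPM, and the inhibitor ratio, 2.18 (1.73 to 2.76), was called, a call lost in thinned cells (log2 0.69) and with the stricter cell filter (0.38). Tip-like cells made up 46.8%, 30.7% and 52.1% of that lineage. Aldh1a7, a neighbouring paralog of near-identical sequence, had 7.07, 4.14 and 8.53 CPM in the ureteric epithelium and 5.64, 0.348 and 1.26 in the nephron, and reads that fit both genes make each count uncertain.

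Summed over the 3 enzymes, Aldh1a2 gave 60.8% (59.4 to 62.1) of the dehydrogenase UMIs in Enl-WT, 46.3% (44.99 to 47.5) in Enl-T1 and 47.5% (46.3 to 48.7) with TDI-11055, while Aldh1a3 gave 33.5% (32.2 to 34.8), 51.9% (50.6 to 53.2) and 48.2% (47.05 to 49.4). In Enl-WT the nephron, the stroma and the ureteric epithelium each held close to equal parts of this sum, 33.2% (31.96 to 34.5), 32.4% (31.1 to 33.7) and 33.2% (31.96 to 34.5). The ureteric epithelium held 51.4% (50.1 to 52.7) in Enl-T1 and 49.01% (47.8 to 50.2) with TDI-11055. They are shares of captured UMIs, with no correction for how well each gene is captured, and join the level in a class with the number of its cells captured. Stroma was 16.7%, 33.7% and 9.804% of the kept cells, and the stromal part of Aldh1a2 UMIs was 52.6%, 61.03% and 51.2%, so the Enl-T1 share joins a larger stroma with a lower level over the whole of it.

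**Figure D2:**
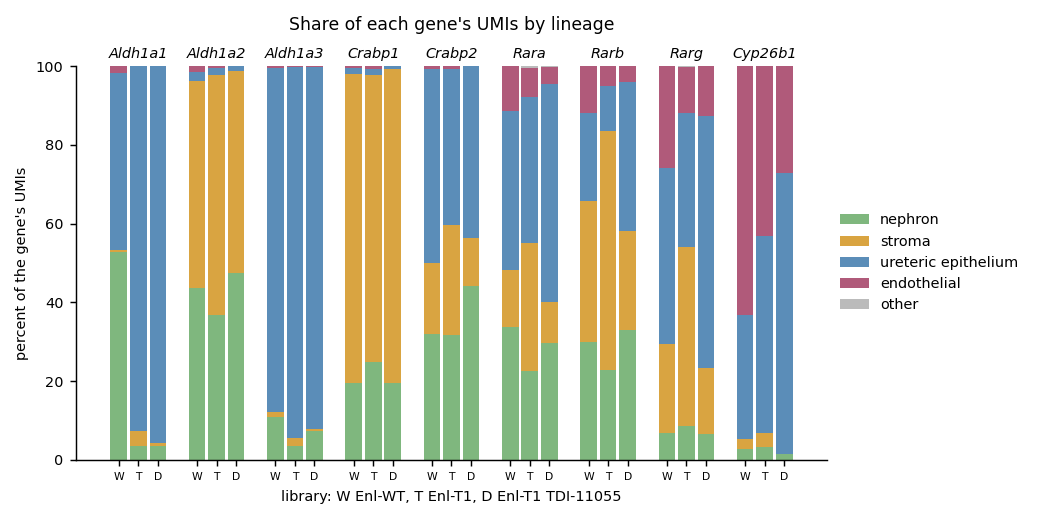
Each bar is 1 library and 1 gene, and its segments give the percent of the gene's UMIs in kept cells that came from each lineage (vertical axis, percent). Aldh1a3 is ureteric in all 3 libraries, Aldh1a1 is shared by nephron and ureteric epithelium in Enl-WT alone, and the endothelial segment of Cyp26b1 is largest in Enl-WT.

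Crabp1 (ENSMUSG00000032291, chr9:54764748-54773110, plus strand), which sequesters retinoic acid in the cytoplasm, had 744, 2934 and 1634 UMIs. The stroma held 78.4%, 72.9% and 79.7% of them. In Enl-WT the cortical and ureteric stroma-like classes had 251 (224 to 281) and 247 (181 to 328) CPM, overlapping intervals, then renin/mesangial-like cells 77.7 (60.9 to 97.7) and committed nephron-like cells 41.4 (32.1 to 52.6). NP-like cells had 4.42 (2.66 to 6.901) CPM, and ureteric tip-like, trunk-like and endothelial cells had 0.591, 0.366 and 1.38.

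The largest ratio of any of the 9 genes in a class of over 100 cells per library was that of Crabp1 in NP-like cells, where its level was 4.42 (2.66 to 6.901) in Enl-WT, 52.9 (48.00 to 58.1) in Enl-T1 and 13.7 (11.6 to 16.1) with TDI-11055. Enl-T1 was highest, TDI-11055 stood between the others, and no intervals overlapped. The mutant ratio was 11.96 (7.57 to 20.1), a log2 ratio of 3.58 against 0.15 for the median gene of like length, and the inhibitor ratio was 0.2600 (0.214 to 0.314), a log2 ratio of -1.94 against 0.14. When cells were clustered on all variable genes the latter was -2.63, with 299 NP-like cells of the TDI-11055 library in place of 622, and 571 cells of that library lay in a cluster named erythroid-like from 1 leading marker, with a median depth of 0.350 of that of their own libraries. The 4 NP-like clusters each showed this order, from 2.68, 38.7 and 8.51 CPM in the lowest to 6.08, 67.3 and 17.8 in the one highest in Enl-T1. After thinning, 0.672%, 8.93% and 2.42% of NP-like cells had a UMI (unthinned 2.53%, 33.6% and 13.02%), against 0.519%, 0.781% and 0% (0 of 115 cells, which allows up to 2.61%) of endothelial cells and 0% (0 of 803 cells, which allows up to 0.374%), 0.278% and 0% (0 of 526 cells, which allows up to 0.5703%) of ureteric tip-like cells. The cortical stroma markers summed to 66.1, 60.1 and 34.9 CPM in NP-like cells and the 10 stromal lineage markers to 184, 131 and 81.00. Of these genes 4 of 7 and 7 of 10 were higher in Enl-T1 than in wild type, at most 1 of a list was at 0 in any library, and their part in the Crabp1 result was not tested.

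Crabp1 varied among the other nephron classes. Committed nephron-like cells had like levels in the 3 libraries, 41.4, 41.5 and 40.2 CPM, with ratios of 1.001 (0.632 to 1.55) and 0.968 (0.626 to 1.53). Proximal tubule-like cells had 15.1, 54.4 and 44.4 CPM, of which the Enl-T1 value comes from 32 cells and 20 UMIs. Distal tubule/loop of Henle-like cells had 2.13, 8.703 and 1.54 CPM, from 8, 12 and 5 UMIs, and podocyte-like cells had 4, 3 and 0 UMIs. The largest unnamed nephron cluster, with 90, 236 and 116 cells, had 15.2, 71.6 and 24.4 CPM, the order of the NP-like cells. Over the whole nephron the level was 10.49, 50.8 and 16.8 CPM, called higher by the mutant ratio and lower with TDI-11055 than in Enl-T1.

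Over the stroma Crabp1 had 142, 193 and 374 CPM, so the TDI-11055 library was not below Enl-T1. Foxd1 cortical stroma-like cells had 251 (224 to 281) in Enl-WT, 482 (457 to 509) in Enl-T1 and 497 (459 to 538) with TDI-11055, a mutant ratio of 1.92 (1.697 to 2.18) that fell just short of 2-fold and was past it relative to the median gene (log2 1.20), and an inhibitor ratio of 1.03 (0.936 to 1.13). The log2 mutant ratio of 0.94 stood against 0.23 for the median gene of like length, so it was not past 2-fold beside such genes. The 3 clusters were unlike each other, the smallest having 309.7, 1003 and 1215 CPM from 35, 107 and 20 cells, the largest 323, 297 and 446, and the third 157, 266 and 205, the one in which TDI-11055 was below Enl-T1, with overlapping intervals. In renin/mesangial-like cells the level was 77.7, 157 and 755 CPM, and in ureteric stroma-like cells 247, 177 and 689, with 23 and 11 cells behind the TDI-11055 values. The thinned share of all stromal cells with a UMI was 17.6%, 17.9% and 35.3%.

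Crabp2 (ENSMUSG00000004885, chr3:87948666-87953376, plus strand), which carries retinoic acid to the nucleus, had 1405, 2791 and 3227 UMIs, of which the ureteric epithelium held 49.1%, 39.8% and 43.6% and the nephron 32.03%, 31.7% and 44.3%. Its Enl-WT levels were 130.4 (111 to 152) CPM in cortical stroma-like, 112 (99.8 to 125) in ureteric trunk-like, 78.7 (44.04 to 129.8) in ureteric stroma-like, 65.9 (49.4 to 86.3) in urothelium-like and 65.8 (58.4 to 73.96) in NP-like cells, each overlapping its neighbour in that order, while tip-like cells had 27.4 (23.01 to 32.3). Trunk-like cells exceeded tip-like cells in Enl-T1 too (129 to 30.02) and with TDI-11055 (153 to 31.9 CPM). Over the nephron Crabp2 had 32.5 (29.6 to 35.7) in Enl-WT, 61.7 (57.7 to 65.9) in Enl-T1 and 75.05 (71.2 to 79.04) with TDI-11055, a mutant ratio of 1.896 (1.69 to 2.13) that was not called (log2 1.34 relative to the median gene). The log2 mutant ratio of 0.92 stood against 0.10 for the median gene of like length, so it was not past 2-fold beside such genes. NP-like cells did not share the difference seen over the nephron. Their levels were 65.8, 64.2 and 89.9 CPM and the same ratio was 0.975 (0.842 to 1.13). Cortical stroma-like cells had 130.4, 148 and 212 CPM and trunk-like cells 112, 129 and 153, and no lineage was called in either comparison.

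**Figure D3:**
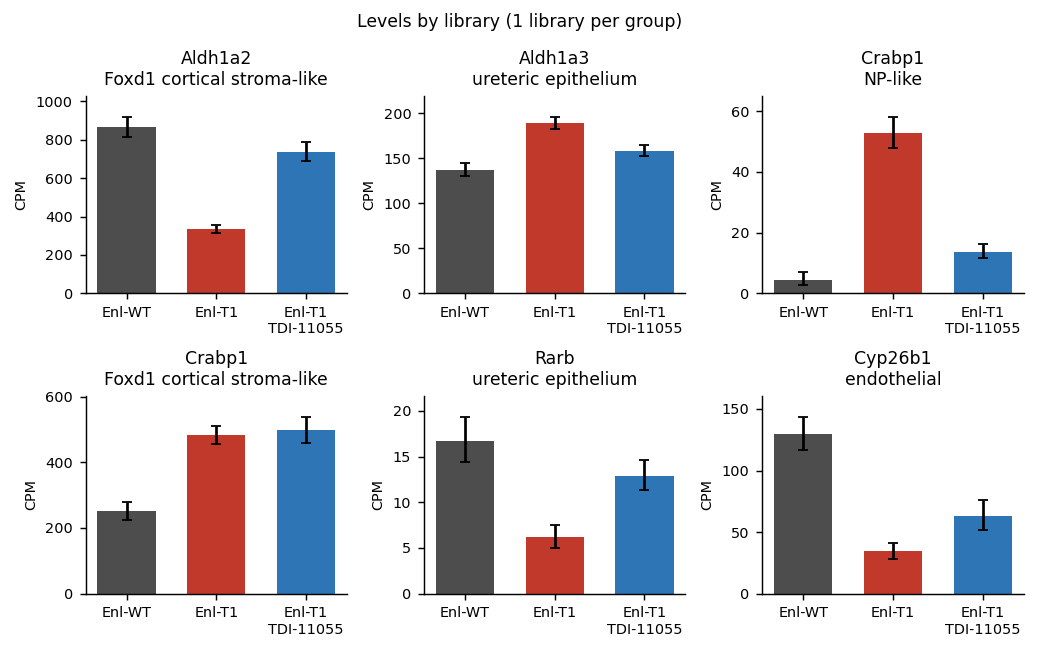
Bars give CPM in the named cells of each library, from 0, and error bars the exact 95% Poisson interval, with 1 library per group. Aldh1a2, Rarb and Cyp26b1 are lowest in Enl-T1, Aldh1a3 and NP-like Crabp1 are highest there, and Crabp1 of the cortical stroma is at like levels in both Enl-T1 libraries.

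Of the receptors, Rara (ENSMUSG00000037992, chr11:98927818-98974942, plus strand) had 949, 1144 and 1073 UMIs and the flattest profile. In Enl-WT its levels lay between 17.1 CPM in podocyte-like and 44.5 in medullary stroma-like cells. By lineage it had 23.1, 18.04 and 16.7 CPM in nephron, 33.6, 33.5 and 32.5 in stroma, 34.2, 27.4 and 31.3 in the ureteric lineage and 37.3, 26.7 and 24.98 in endothelial cells. None of the 8 lineage ratios was called, the lowest being the mutant ratio of 0.716 (0.533 to 0.961) in endothelial cells.

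Rarb (ENSMUSG00000017491, chr14:16430839-16819156, minus strand), a receptor whose own promoter answers to retinoic acid, had 842, 837 and 648 UMIs. In Enl-WT it had 144 (112 to 181) CPM in medullary stroma-like, 88.8 (72.9 to 107) in cortical stroma-like, 52.5 (25.2 to 96.5) in ureteric stroma-like and 40.9 (31.7 to 51.96) in podocyte-like cells. The first exceeded the second beyond their intervals, and the last pair overlapped. Endothelial cells had 34.9 (28.4 to 42.4), and tip-like and trunk-like ureteric cells had 17.1 (13.7 to 21.1) and 19.03 (14.2 to 24.96), which do not differ beyond theirs.

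Rarb was called lower in Enl-T1 than in wild type in ureteric epithelium and in medullary stroma-like, endothelial and distal tubule/loop of Henle-like cells. Distal tubule/loop of Henle-like cells had 15.45, 5.08 and 9.87 CPM. The Enl-T1 value came from 7 UMIs in 111 cells, and the mutant ratio was 0.329 (0.126 to 0.721). No share of all genes called lower is given here for the medullary and distal classes. Short of 2-fold, Rarb was also lower over the whole stroma, at 0.625 (0.541 to 0.723), and over the nephron, at 0.723 (0.596 to 0.877). In the ureteric epithelium it had 16.7 (14.4 to 19.3) in Enl-WT, 6.15 (4.98 to 7.52) in Enl-T1 and 12.9 (11.3 to 14.6) with TDI-11055, with ratios of 0.367 (0.284 to 0.473) (mutant) and 2.097 (1.65 to 2.69) (inhibitor), both called. The first is a log2 ratio of -1.44 against -0.37 for the median gene of like length, the second 1.07 against 0.02. Tip-like cells, at 17.1, 7.61 and 13.4 CPM, and trunk-like cells, at 19.03, 9.798 and 14.04, had the same order, with Enl-T1 ratios of 0.444 (0.294 to 0.6595) and 0.515 (0.321 to 0.815). The tip-like ratio was called, a call lost relative to the median gene (log2 -0.89). All 4 tip-like clusters and both trunk-like clusters were lowest in Enl-T1. In male cells alone both calls were lost, with log2 ratios of -0.69 (mutant) and 0.40 (inhibitor), and cells filtered more strictly gave -1.02 and 0.82. Medullary stroma-like cells had 144 (112 to 181) in Enl-WT, 55.9 (46.7 to 66.3) in Enl-T1 and 89.4 (60.3 to 128) with TDI-11055, with a mutant ratio of 0.389 (0.289 to 0.527), and the TDI-11055 value comes from 28 cells. In cortical stroma-like cells the levels were 88.8, 53.3 and 42.4 CPM, not called at 0.600 (0.465 to 0.777). Endothelial cells had 34.9, 13.5 and 14.8, with Enl-T1 called at 0.387 (0.265 to 0.559) (a call lost in male cells, log2 -0.72) and an inhibitor ratio of 1.09 (0.644 to 1.82). The log2 mutant ratios of medullary stroma-like and endothelial cells, -1.36 and -1.37, each stood against -0.38 for the median gene of like length. Beside such genes both were just short of 2-fold. NP-like cells were level, at 14.9, 14.2 and 11.7 CPM and 0.956 (0.699 to 1.32).

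Rarg (ENSMUSG00000001288, chr15:102234938-102257517, minus strand) had 467, 597 and 391 UMIs and was scarce in the nephron, with 2.31, 3.55 and 1.37 CPM, under the minimum for a call. Enl-WT levels were 41.8 (34.7 to 49.96) CPM in endothelial, 35.9 (26.05 to 48.1) in cortical stroma-like and 30.3 (16.99 to 50.1) in medullary stroma-like cells, with overlapping intervals, and 18.7 (16.3 to 21.4) in ureteric epithelium. In the other lineages the mutant ratio farthest from 1 was that of endothelial cells, with 41.8, 22.01 and 28.4 CPM and 0.527 (0.387 to 0.713), and no lineage was called.

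Cyp26b1 (ENSMUSG00000063415, chr6:84571414-84593908, minus strand), which clears retinoic acid, had 594, 253 and 410 UMIs. Endothelial cells held 63.1%, 43.1% and 27.1% of them and ureteric epithelium 31.6%, 50.2% and 71.5%. In endothelial cells the level was 129.6 (117 to 143) in Enl-WT, 34.3 (28.1 to 41.4) in Enl-T1 and 63.02 (51.8 to 75.9) with TDI-11055. Enl-WT was highest and Enl-T1 lowest with no overlap, the ratio being 0.265 (0.212 to 0.328) (log2 -1.92 against -0.38 for genes of like length), while the inhibitor ratio, 1.84 (1.398 to 2.42), stayed under 2-fold (log2 0.88 against -0.08) but passed it in thinned cells (1.35). Thinned shares of endothelial cells with a UMI were 16.9%, 5.47% and 12.2% (unthinned 38.2%, 22.7% and 34.8%), against 0% (0 of 744 cells, which allows up to 0.403%), 0% (0 of 638 cells, which allows up to 0.4702%) and 0% (0 of 621 cells, which allows up to 0.483%) of NP-like cells. A small endothelial cluster led by lymphatic genes, with 17, 23 and 2 cells, held almost none of the transcript, and without it the levels were 135, 36.5 and 64.2 CPM. The 10 endothelial markers summed to 4780.1, 4359 and 4156 CPM in these cells. In the ureteric epithelium Cyp26b1 had 16.8, 8.22 and 15.4 CPM and was called lower in Enl-T1, at 0.488 (0.387 to 0.615), a call lost relative to the median gene (log2 -0.73). Trunk-like cells had 19.8, 9.19 and 22.6 CPM and tip-like cells 24.2, 15.4 and 16.1. The related enzymes Cyp26a1 and Cyp26c1 were near the detection limit, Cyp26a1 with 1.74, 0.627 and 1.26 CPM in nephron cells and no UMI in ureteric epithelium of any library.

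Counted by lineage, Crabp1 in nephron was the 1 gene with a mutant ratio called higher, against a background of 2.82% of all tested nephron genes; in stroma, ureteric epithelium and endothelium none was, with backgrounds of 2.81%, 2.45% and 2.07%. Calls lower in Enl-T1 were 1 of 7 tested in nephron (Aldh1a1, background 17.3%), 1 of 7 in stroma (Aldh1a2, background 8.83%), 2 of 7 in ureteric epithelium (Rarb and Cyp26b1, background 6.43%) and 3 of 5 in endothelial cells (Rarb, Cyp26b1 and Aldh1a2, the last in a class taken to lack it, background 8.58%). Median log2 ratios of the tested members were -0.47, -0.0048, -0.50 and -1.37 in these lineages, beside the medians of all genes given above. For the inhibitor ratio, Crabp1 was lower in nephron (1 of 6, background 1.87%, with 1.26% higher), Aldh1a2 was higher in stroma (1 of 7, background 2.12%, with 4.32% lower), Aldh1a1 and Rarb were higher in ureteric epithelium (2 of 7, background 1.6%, with 3.9% lower), and none of 4 was called in endothelial cells (background 1.81% higher and 5.83% lower). In classes, backgrounds for the mutant ratio were 9.8% lower in cortical stroma-like, 2.72% higher in NP-like, 6.11% lower in tip-like and 8.29% lower in trunk-like cells, and for the inhibitor ratio 2.76% higher in cortical stroma-like, 2.25% lower in NP-like and 1.7% higher in trunk-like cells. With so few members a lineage, these counts describe single genes and not the group.

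**Figure D4:**
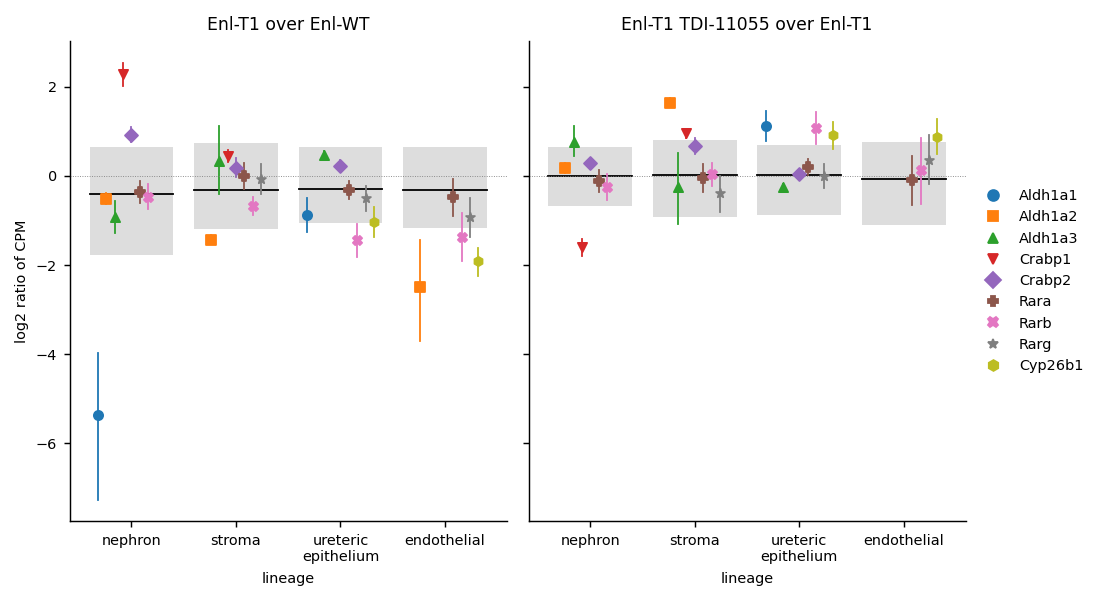
Points give the log2 ratio of CPM of each tested gene in 4 lineages, with its 95% counting interval; grey boxes span the 5th to 95th percentile of all tested genes and the black line their median. Crabp1 in nephron lies above the box and Aldh1a2 in stroma below it for the mutant ratio (left), and both lie on the other side for the inhibitor ratio (right), which shares the Enl-T1 library.

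The wider pathway was followed with a list of 50 genes for vitamin A uptake, retinoid oxidoreductases, carriers, receptor partners, coregulators and genes known to answer to retinoic acid. For the mutant ratio, 2 of 27 tested genes were called higher and 1 lower in nephron (2.82% and 17.3% of all genes), 1 and 2 of 30 in stroma (2.81% and 8.83%), 2 and 2 of 28 in ureteric epithelium (2.45% and 6.43%), and 1 and 0 of 28 in endothelial cells (2.07% and 8.58%). List medians were -0.33, -0.41, -0.59 and -0.39 in these lineages, and that of ureteric epithelium lay farthest below the median of all genes given above. For the inhibitor ratio the counts higher and lower were 1 and 2 of 28 in nephron (1.26% and 1.87% of all genes), 1 and 1 of 31 in stroma (2.12% and 4.32%), 2 and 3 of 28 in the ureteric lineage (1.6% and 3.9%) and 0 and 2 of 28 in endothelial cells (1.81% and 5.83%).

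In the nephron Rdh10, which makes retinaldehyde, had 59.2, 117 and 69.8 CPM and a mutant ratio of 1.97 (1.82 to 2.15), just under the 2-fold line. Dhrs3, which turns retinaldehyde back to retinol and is induced by retinoic acid, had 11.4, 22.9 and 14.1 CPM and was called at 2.01 (1.65 to 2.44). The alcohol dehydrogenase Adh1 was called higher in Enl-T1 in nephron (2.31, 8.499 and 1.997 CPM), stroma (4.88, 12.6 and 2.59) and ureteric epithelium (19.9, 41.6 and 9.11), and lower with TDI-11055 than in Enl-T1 in all 3. Akr1b3, an aldo-keto reductase, had 229, 463 and 154 CPM in ureteric epithelium, called both ways. There the 7 urothelium markers summed to 486, 1912 and 260.1 CPM, 6 of them higher in Enl-T1 than in wild type and 1 at 0 with TDI-11055, and their part in the ureteric Adh1 and Akr1b3 results was not tested. The carrier Fabp5 had 358, 117 and 156 CPM in stroma and was called lower in Enl-T1. Coregulators called included Crebbp in nephron (231, 114 and 78.7 CPM), lower in Enl-T1 and not past 2-fold relative to the median gene, and Ep300 in endothelial cells, lower with TDI-11055 (85.002, 60.4 and 27.2). Rdh14 was higher in Enl-T1 endothelial cells (6.57, 13.5 and 13.6 CPM). With TDI-11055, Hoxb1 was higher than in Enl-T1 in nephron (0.868, 6.13 and 38.2 CPM), Meis1 was lower in nephron (55.5, 76.1 and 37.2) and endothelial cells (16.2, 8.81 and 3.41), Meis2 lower in ureteric epithelium (28.7, 27.4 and 6.27), and Rxrg higher in stroma (2.68, 6.58 and 16.1). The partners Rxra and Rxrb had 32.5, 31.4 and 17.95 and 25.1, 21.1 and 28.7 CPM in ureteric epithelium and were called in no lineage.

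Stromal retinoic acid is known to act on the ureteric epithelium, which held Aldh1a3 and Aldh1a1 transcripts itself, and retinoic acid was not measured here. Of the 14 listed genes known to answer to retinoic acid, 6 were tested there. The mutant ratio called 2 lower (Stra6 and Ret) and none higher, beside 6.43% and 2.45% of all genes tested there. The inhibitor ratio called 1 higher (Stra6) and 1 lower (Meis2), beside 1.6% and 3.9% of all genes. The listed genes were not of 1 direction. Dhrs3 had 47.5, 63.2 and 58.02 CPM there, with a mutant ratio above 1, 1.33 (1.198 to 1.48), and Cyp26a1 had no UMI. Stra6, the retinol transporter, had 23.8 (21.04 to 26.9) in Enl-WT, 7.12 (5.85 to 8.58) in Enl-T1 and 19.1 (17.1 to 21.1) with TDI-11055, with ratios of 0.299 (0.237 to 0.375) and 2.68 (2.16 to 3.34), both called, and in tip-like cells 46.5, 19.1 and 30.3 CPM. Ret had 115 (108 to 121) in Enl-WT, 56.5 (52.8 to 60.4) in Enl-T1 and 87.8 (83.6 to 92.1) with TDI-11055, called lower in Enl-T1 at 0.493 (0.452 to 0.537). Within tip-like cells alone Ret had 204, 141 and 129.7 CPM, so Ret in the TDI-11055 library was not above Enl-T1 once tip-like cells were compared. For Rarb and Stra6 tip-like cells kept the order of the lineage, lowest in Enl-T1 and between the others with TDI-11055, with intervals of Enl-T1 that overlap neither library. Tip markers summed to 398, 217 and 489 CPM over the lineage and 745, 579.9 and 772 in tip-like cells, with none of the 6 higher in Enl-T1 than in wild type, and their part in these results was not tested.

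**Figure D5:**
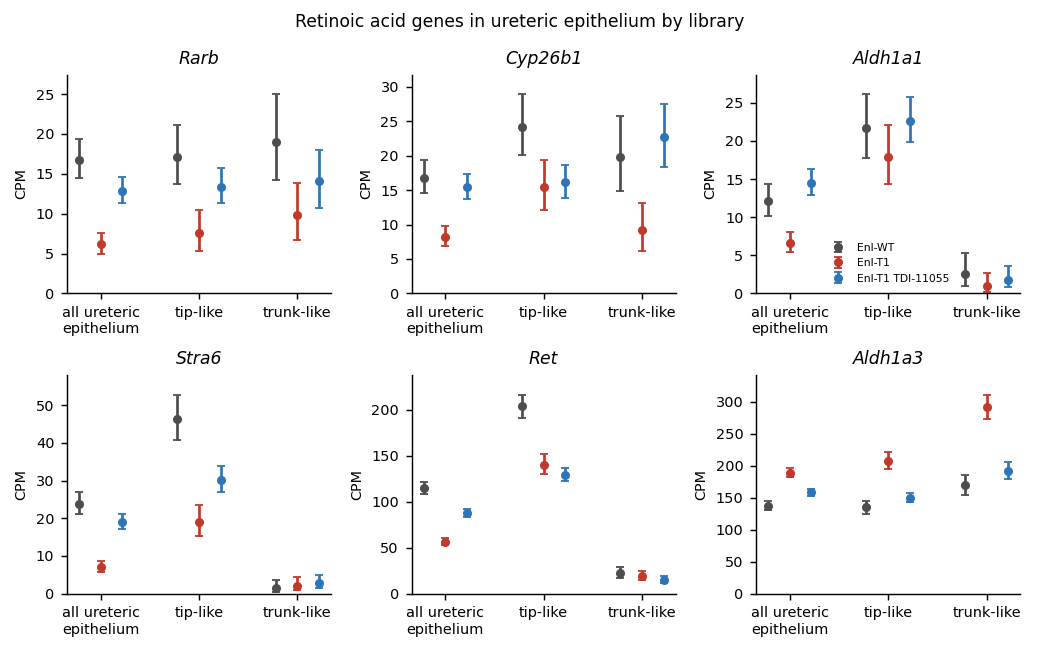
Points give CPM with exact 95% Poisson intervals in all ureteric epithelium, in tip-like cells and in trunk-like cells of each library (colours). Rarb and Stra6 are lowest in Enl-T1 within tip-like cells as well, whereas Ret of tip-like cells is at like levels in both Enl-T1 libraries.

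Genes with the most similar pattern were sought over 8 classes that had at least 50 cells in every library (24 points, each a class in a library, 10816 genes). Podocyte-like and medullary stroma-like cells, the highest classes of Aldh1a1 and Rarb in Enl-WT, were left out by that rule. So were ureteric stroma-like and renin/mesangial-like cells, which held much Crabp1. The points share libraries and are not independent, so the Pearson correlations of log2(CPM + 10) are descriptions. The 3 closest genes were Nr2f1 (0.962), A830082K12Rik (0.941) and P4ha2 (0.935) for Aldh1a2, Cldn3 (0.986), Bspry (0.971) and Arhgef19 (0.959) for Aldh1a3, Pi4k2b (0.949), Ret (0.940) and Ctnnd2 (0.923) for Aldh1a1, Lsp1 (0.945), Stbd1 (0.937) and AW551984 (0.933) for Crabp1, Cacnb3 (0.897), Gatd1 (0.848) and Atxn7l3b (0.836) for Crabp2, Chd3 (0.895), Plbd2 (0.881) and Sertad2 (0.864) for Rara, Bmp1 (0.909), Col12a1 (0.903) and Nfic (0.890) for Rarb, Mdfi (0.932), Tgfbr3 (0.929) and Nfib (0.926) for Rarg and Cxcl1 (0.966), Rapgef3 (0.932) and Rapgef4 (0.928) for Cyp26b1. Aldh1a2 was thus closest to Nr2f1, a nuclear receptor gene, and Aldh1a3 to the tight junction gene Cldn3. With podocyte-like cells left out, Aldh1a1 had Ret among its closest genes.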

How the data were processed

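Droplet single-cell libraries (10x Genomics, 3′ ends) of whole kidneys were deposited by the authors as raw UMI counts per gene and barcode, made with Cell Ranger 6.1.2 on mouse build mm10, with no later filter. Barcodes with 1000 to 6000 genes and at most 10% mitochondrial UMIs were kept, as in the study's methods. The libraries held 7186, 6575 and 6453 barcodes with 37221435, 63336586 and 76619303 UMIs. Doublets were left in. Anchor integration of the libraries used Seurat 5.3.0 (R 4.3.3) and 2000 variable genes, without the members, the pathway list, Hox genes (105 genes together) and technical genes (116), followed by clustering of all cells (30 principal components, resolution 0.5). Nephron, stroma and ureteric epithelium were clustered again on 20 components at 0.8.

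Clusters were named by the markers among their 10 leading genes and by the mean log2 difference of the markers from the other cells. In several named clusters, among them NP-like, tip-like, trunk-like and cortical stroma-like ones, no marker of the type was among those 10. That mean difference was 0.23 to 0.38 in such NP-like clusters and 0.040 in such a trunk-like cluster. No name was given with under 3 markers detected in 10% of the cells, when another type's markers led, or when fewer than 2 markers led and the markers were not above the other cells. Unnamed clusters held 160, 427 and 184 nephron, 242, 401 and 90 stromal and 376, 290 and 173 ureteric cells, and count in their lineage. Names were rebuilt here and can differ from the study's.

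UMIs were summed per class and library and divided by that sum (CPM). Exact Poisson, binomial and count-split intervals (95%, scipy 1.17.1) cover counting error only, and UMIs of 1 cell are not independent, so the true error is larger. For shares, cells were thinned to 2000 UMIs, and 96, 15 and 20 shallower cells were left out. A count of 0 was set to 3 for a ratio. The ratio calculation was tested on simulated data. Coordinates and exonic lengths are from GENCODE M21 (GRCm38, the build of mm10), with lengths for 32235 of 32285 genes. Rarb overlaps Top2b, and Aldh1a1 and Aldh1a2 overlap unnamed transcripts, on the other strand, and Rara overlaps the predicted gene Gm22061 on its own strand. Alternatives were median-of-ratios scaling, a total without technical genes, thinned sums, no filter on low values, cells with at least 3000 UMIs and at most 5% mitochondrial UMIs, removal of the highest Scrublet scores (0.8% per 1000 barcodes), clustering on all variable genes, and male cells only. Members, lists and rules were chosen with earlier results of these data known. All members are named, with pathway genes that were called in a lineage or listed by role, of which some are not reported here.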

Additional observations from a re-analysis of the deposited data

How the results depend on the processing

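Leaving out a replicate and a paired analysis could not be run, since each group had 1 library. No paired analysis was possible because no replicate numbers exist. The value of no called member in a lineage changed sign under any alternative. Of the log2 ratios recomputed for members, 24 to 27 of 28 for Enl-T1 over Enl-WT and 19 to 26 of 26 for TDI-11055 over Enl-T1 kept their sign, fewest with strict cells and with male cells. Of 44 log2 ratios other than those given below, 24 left their counting interval in male cells, 22 in thinned cells, 14 each with strict cells and median-of-ratios scaling, 7 without technical genes, and 1 each without doublets and with the other clustering. Depth limited Aldh1a1, Rarg and the classes with few cells in Enl-T1 TDI-11055.

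Member calls higher for Enl-T1 over Enl-WT, summed over 4 lineages, were 1 as reported, 2 under median-of-ratios scaling, the stricter cell filter or male cells, and 3 without technical genes in the total or without the filter on low values. The 7 calls lower in Enl-T1 stayed within 1.5 times. Pathway list calls higher in Enl-T1 numbered 6, against 11 without technical genes and 12 without the low-value filter. Those lower numbered 5, against 2 with median-of-ratios scaling, 3 without technical genes, 10 with thinned cells, 18 without the low-value filter, 14 with strict cells and 13 in male cells. For TDI-11055 over Enl-T1, the 3 member calls higher became 1 with strict cells or male cells, and the 1 call lower became 4 without the low-value filter. Pathway calls higher were 4, against 9 without the low-value filter and 1 with strict cells, and those lower were 8, against 14 thinned and 13 without the low-value filter.

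For Enl-T1 over Enl-WT, the log2 ratio of Aldh1a2 in Foxd1 cortical stroma-like cells, -1.37, was -1.11 with median-of-ratios scaling, -1.22 without technical genes and -1.10 with strict cells. Aldh1a3 in ureteric epithelium, 0.46, was 0.76 relative to the median gene, 0.60 without technical genes and 0.68 in male cells. Rarb there, -1.44, was -1.02 with strict cells and -0.69 in male cells. Cyp26b1 in endothelial cells, -1.92, was -1.60 with median-of-ratios scaling and -1.36 in male cells. Crabp1 in NP-like cells, 3.58, moved outside its interval under no alternative run.

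For TDI-11055 over Enl-T1, Aldh1a2 in Foxd1 cortical stroma-like cells, 1.14, was 0.92 thinned, 0.98 with strict cells and 1.29 in male cells. Crabp1 in NP-like cells, -1.94, was -2.63 when clustered on all variable genes and -2.39 in male cells. Aldh1a3 in ureteric epithelium, -0.25, was -0.050 thinned and -0.50 in male cells. Rarb in ureteric epithelium, 1.07, was 0.40 in male cells. Cyp26b1 in endothelial cells, 0.88, was 1.35 thinned and 0.40 with strict cells. Apart from the settings' own construction (fewer cells, or genes with fewer counts), the cause of these moves was not tested.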
